A study of Mus musculus with 9 samples.

Results

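The 130 genes described here were selected on their signals: they were lower in intermediate mouse ovarian surface epithelial (MOSE) cells than in both the early and the late cells of the same series. A gene was taken when 1 of its probe sets had a mean signal over 500 on the 3 arrays of early (MOSE-E) cells and on the 3 arrays of late (MOSE-L) cells, when both of those means were at least 2 times the mean of the 3 arrays of intermediate (MOSE-I) cells, and when the highest MOSE-I signal lay below the lowest of the 6 other signals. Each gene was counted once, by the brightest of its probe sets that passed. The 130 genes were 0.715% of the 18193 genes that a probe set names alone, and 2.26% of the 5757 genes with a mean signal over 500 in both MOSE-E and MOSE-L cells. The opposite course, with MOSE-I cells at least 2 times above both other stages and the arrays parted in the same way, was taken by 50 genes. Because these signals chose the genes, the dip itself is given as a description with no test.

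MOSE cells come from the surface epithelium of the ovary of C57BL6 mice, and they transformed spontaneously while they were passaged. MOSE-E cells (passages 13, 14 and 15) stand for a non-malignant stage before neoplasia, MOSE-I cells (passages 63, 71 and 73) for an intermediate stage that forms tumors but is less invasive, and MOSE-L cells (passages 136, 142 and 143) for a malignant, invasive stage. The labels give no treatment, and all 3 stages were grown as cultures in the same high-glucose medium with fetal bovine serum, penicillin, streptomycin, insulin, transferrin and selenite. The 9 arrays are thus 3 cultures for each stage of 1 heterogeneous cell series, and p-values measure the spread between these cultures, not between independently derived series.

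Ovarian surface epithelium is a simple layer of mesothelial kind that rests on a basement membrane. Such cells hold to the matrix through integrins, heterodimers of an alpha and a beta chain that grip laminins, collagens or fibronectin outside the cell and are joined by talin and other linkers to actin inside it. Spectrins, spectraplakins and motor proteins tie actin to microtubules and membranes, and the tension in this scaffold is read by the coactivators YAP and TAZ, which switch on genes through TEAD factors. The genes of this machinery are described first, from adhesion and matrix to scaffold and YAP targets, and genes of signalling, RNA processing and the secretory pathway after them.

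Signals are linear intensities without a unit, scaled by the authors to the same trimmed mean on each array, and levels of different probe sets cannot be set against each other. The values given for a gene are its signals on replicates 1, 2 and 3 of each stage, or the mean and SD of these 3 arrays (n = 3), always for the probe set that passed unless another is named. The median signal of an array ran from 93.2 to 130.0. Within a stage, log2 signals of 2 arrays correlated at 0.889 to 0.986, with MOSE-L replicate 3 (0.889 and 0.907), MOSE-I replicate 1 (0.939 and 0.947) and MOSE-E replicate 1 (0.951 and 0.955) farther from their partners than those were from each other. All 11 markers of ovarian surface epithelium and mesothelium that were looked for, Krt7, Krt8, Krt18, Krt19, Wt1, Msln, Upk3b, Upk1b, Lrrn4, Cdh2 and Vim, passed 500 on at least 1 array, whereas 1 of 6 leukocyte markers (Csf1r) and none of 5 endothelial, 4 granulosa and 4 theca markers did. Of 5 smooth muscle markers, Acta2, Cnn1 and Tagln passed 500 on at least 1 array, and Myh11 and Des did not. Their summed mean signals, most of them from Acta2 and Tagln, were 66513 in early, 18035 in intermediate and 1199 in late cells. Of 5 stromal markers 3 passed, and the sums of all 5 were 26972, 19479 and 26684. The stromal sum was lowest in MOSE-I cells like the genes described here, through opposite courses of Dcn and Col1a1, and the part of these cell types in the dip was not tested. Msln alone among all these markers was one of the 130 genes.

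Size and shape of the dip are shown by the ratios of mean signals. Mean MOSE-E signals were 2.00 to 9.08 times the MOSE-I mean (median 2.67), and mean MOSE-L signals 2.01 to 13.9 times (median 2.94). The lower of the 2 ratios reached 3 in 34 genes and 4 in 13 genes, and stayed under 2.5 in 69. Their mean MOSE-I signals ran from 124.2 to 6827 with a median of 470.1, under 200 in 14 genes and over 1000 in 28. The thresholds of the selection cut through a continuum. Glg1, a Golgi glycoprotein, passed with MOSE-E signals 2.002 times MOSE-I, whereas Ranbp2, a nuclear pore protein, stayed outside with a lower ratio of 1.999. The RasGAP gene Rasal2 passed with a mean MOSE-E signal of 505.8 and the clathrin adaptor gene Ap2a2 missed the signal threshold at 495.8 in MOSE-L cells. Of the genes with arrays nearest to touching, the palmitoyltransferase gene Zdhhc21 had a lowest outer signal 1.003 times its highest MOSE-I signal and passed, and Eda2r, a receptor of ectodysplasin, had 0.9924 times and did not.

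**Figure D1:**
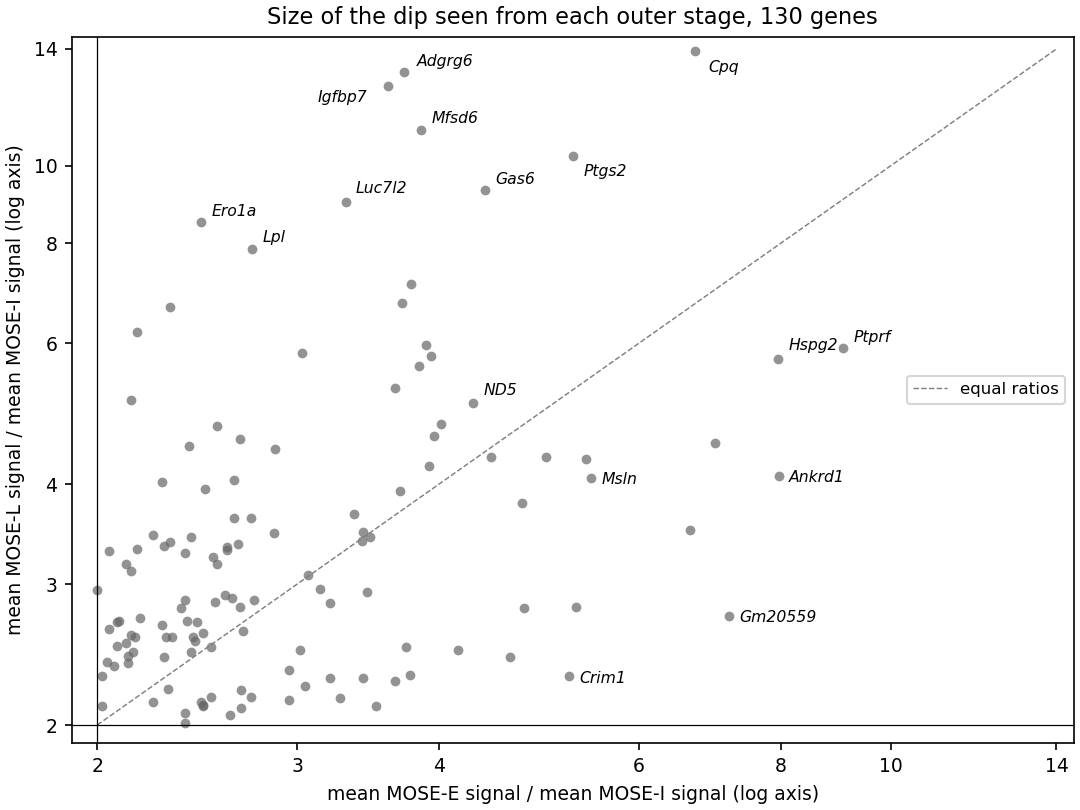
Each point is 1 of the 130 genes. The horizontal axis is the mean MOSE-E signal over the mean MOSE-I signal and the vertical axis the mean MOSE-L signal over the mean MOSE-I signal (3 arrays each, log axes), with black lines at the ratio of 2 that the selection set and a dashed line of equal ratios. Cpq reaches 13.9 on the vertical axis and Ptprf 9.08 on the horizontal one, and 84 genes lie above the dashed line.

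The 130 genes also shared an order of the arrays that the selection did not set. MOSE-E replicate 1 gave the lowest of the 3 MOSE-E signals in 109 of the 130 genes (83.8%), against 36.0% of the 5627 other genes over 500 in both outer stages. MOSE-L replicate 1 gave the lowest MOSE-L signal in 103 (79.2%), against 30.9% of the other genes. Both held for 93 genes (71.5%), against 18.1% of the others. One of these 2 arrays was the lowest of the 6 outer arrays in 112 of the 130 genes (86.2%). The median gene lay 2.03 times above the MOSE-I mean on MOSE-E replicate 1 and 3.03 times above it on replicates 2 and 3, and 1.94 times on MOSE-L replicate 1 and 3.48 times on replicates 2 and 3. On replicate 1 alone, 69 genes reached 2 times the MOSE-I mean at the early and 62 at the late stage. MOSE-L replicate 3 was the highest of the 6 outer arrays in 60 genes.

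The 9 arrays thus showed 3 levels of these genes, with both replicates 1 in the middle. As medians of the log2 deviation from each gene's own mean, the 130 genes stood at 0.03, 0.67 and 0.53 on the early, at -1.01, -0.86 and -0.96 on the intermediate and at -0.04, 0.70 and 0.85 on the late arrays, while all genes over 500 in both outer stages stood between -0.03 and 0.05 on every array. The median signals of the arrays moved partly with this order: 96.4, 115.5 and 115.9 at the early stage, 93.2, 97.3 and 93.7 at the intermediate and 104.7, 130.0 and 106.6 at the late stage. The ratio of 3' to 5' signals of the Actb control, a sign of RNA length, was 1.12, 1.25 and 1.24 on the early arrays, 1.32, 1.38 and 1.31 on the intermediate and 1.34, 1.45 and 1.83 on the late arrays, with the highest value on an array where these genes were high. For Gapdh the ratio ran from 0.727 to 0.810 over the 9 arrays. The part of RNA quality in the dip was not tested. When every array was brought to the same median signal, 71 of the 130 genes still met the rule and no other gene did.

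**Figure D2:**
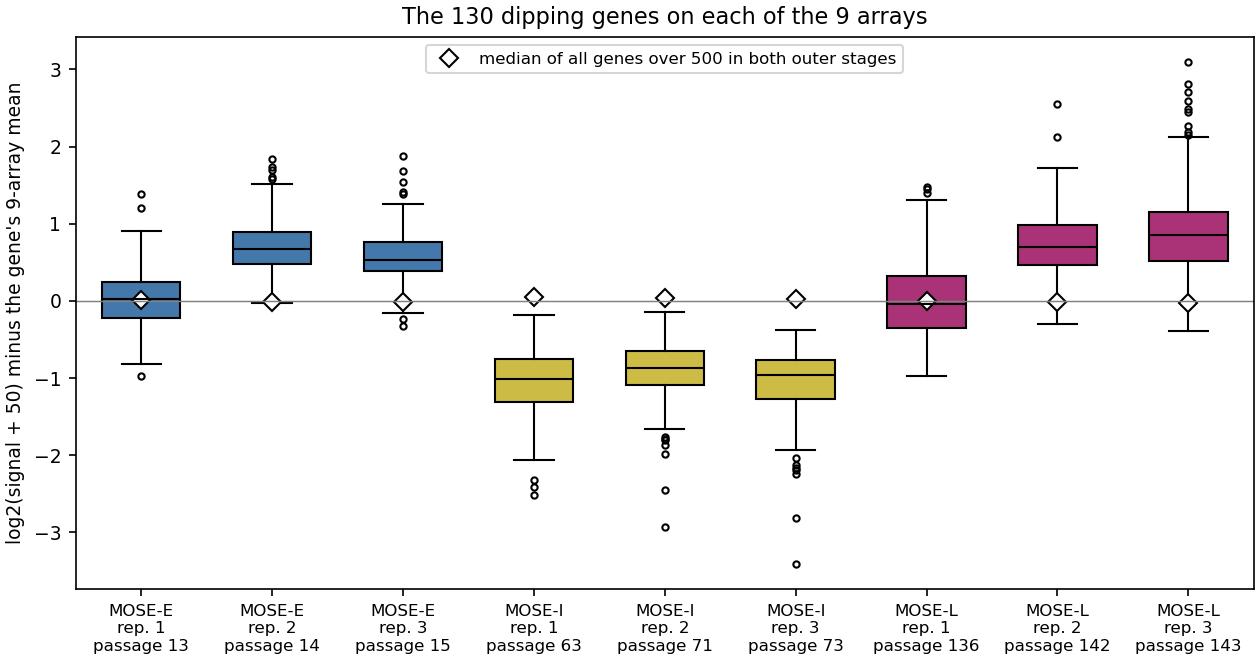
Log2 of the signal plus 50 minus the mean of the gene over the 9 arrays (vertical axis), for the 130 genes on each array (horizontal axis, by stage, replicate and passage). Boxes give median and quartiles, whiskers reach up to 1.5 times the box height, circles are genes beyond them, and diamonds give the median of all genes over 500 in both outer stages. MOSE-E replicate 1 and MOSE-L replicate 1, with medians of 0.03 and -0.04, lie between the MOSE-I arrays and the 4 other arrays.

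Integrins and their partners were among the genes that dipped. Integrin beta 1 (Itgb1), the beta chain shared by most collagen, laminin and fibronectin receptors, gave signals of 7306, 10929 and 10022 at the early, 4224, 3839 and 3534 at the intermediate and 7105, 11007 and 11510.2 at the late stage. Integrin alpha V (Itgav), whose dimers bind the RGD motif of vitronectin and fibronectin, gave signals of 1212, 2058 and 1702 at the early, 435, 394 and 500.3 at the intermediate and 566, 1651 and 1105 at the late stage. As the selection demanded, no MOSE-I array overlapped an outer array in either gene. The MOSE-L and MOSE-E arrays of each gene overlapped. A brighter Itgav probe set, with means of 15184, 6348 and 11916 (early, intermediate and late), was lowest in MOSE-I cells too, at ratios of 2.39 and 1.88, and missed the threshold of 2 on the MOSE-L side. The laminin-binding chain alpha 3 (Itga3) averaged 696 ± 279 in early, 259.5 ± 100.2 in intermediate and 572 ± 224 in late cells. Its brighter probe set, with means of 1959.8, 1143 and 2167 (early, intermediate and late), reached ratios of 1.71 and 1.9 and did not pass. Of 9 integrin genes tested, these 3 dipped. Between MOSE-L and MOSE-E cells Itgb5 and Itgb8 were called higher and Itga7 lower, none of them a dipping chain. Itga6, another laminin-binding chain that did not dip by the rule, also had its lowest mean in MOSE-I cells (592, with 1129 in early and 1592 in late cells).

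Linkers of integrins and of the cell cortex followed. Talin 1 (Tln1), which binds beta chains and opens the integrin, averaged 3052 ± 1324 in early, 661 ± 45.6 in intermediate and 1606 ± 740.3 in late cells. Lamellipodin (Raph1), which brings Ena/VASP proteins to the leading edge, was among the 10 deepest dips. It gave signals of 1919, 3764 and 4085 at the early, 546, 848 and 569 at the intermediate and 1840.4, 2907 and 3740.1 at the late stage, so that each outer array was more than 2 times each MOSE-I array. Nischarin (Nisch), a scaffold that binds integrin alpha 5, gave signals of 775, 1946 and 1403 at the early, 203, 287 and 276 at the intermediate and 357, 1483 and 1453 at the late stage, and here MOSE-L replicate 1 lay close to the MOSE-I arrays. Peak1, a pseudokinase of the cytoskeleton and focal adhesions, averaged 1439.6 ± 678 in early, 448 ± 14.2 in intermediate and 1275 ± 325 in late cells. Another probe set of Nisch, with means of 3947, 2118 and 2598 (early, intermediate and late), dipped less. Of the focal adhesion proteins listed, Tln1 was the only one of 23 tested that dipped.

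Several proteins of cell-to-cell adhesion were among the genes. The poliovirus receptor Pvr and its relative Nectin2, which lie 154 kb apart on chromosome 7, averaged 1056 ± 299 in early, 313 ± 80.3 in intermediate and 1148 ± 876 in late cells and 1313 ± 306 in early, 619.6 ± 223 in intermediate and 1566 ± 374 in late cells. Ncam1, the neural cell adhesion molecule, averaged 2555 ± 924 in early, 1180.4 ± 200.5 in intermediate and 3044 ± 891 in late cells, and Esam, first described in endothelium, 1374 ± 201 in early, 351 ± 190.3 in intermediate and 1477 ± 966 in late cells. The endothelial markers Pecam1 and Cdh5 stayed under 500 on every array, so the Esam signal was measured where those markers were not. Claudin 15 (Cldn15), a pore-forming tight junction protein, averaged 1611 ± 464 in early, 611 ± 341 in intermediate and 2218 ± 379.7 in late cells, and the tight junction scaffold Mpdz 1880.5 ± 423 in early, 881 ± 97.1 in intermediate and 2149 ± 395 in late cells. None of the 18 tested cadherins, catenins and junction genes of the list used here was among the 130.

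A pair of collagen genes of the basement membrane was among the 130. Col4a5 and Col4a6 encode alpha chains of collagen IV and lie head to head on the X chromosome, Col4a6 at 141165403 to 141474095 on the minus strand and Col4a5 at 141475370 to 141689236 on the plus strand of GRCm38.p6, with 1275 bases between them. Col4a5 gave signals of 5952, 13320.5 and 13162 at the early, 2989, 3567 and 2930.0 at the intermediate and 8638, 9413 and 14179 at the late stage, so that every outer array lay at least 5952 against at most 3567 in MOSE-I cells. Col4a6 averaged 891 ± 254 in early, 326 ± 147 in intermediate and 1182 ± 304 in late cells. The ratios of the pair were 3.42 and 3.40 for Col4a5 and 2.73 and 3.63 for Col4a6, MOSE-E and then MOSE-L over MOSE-I. A brighter Col4a6 probe set, with means of 1072, 638 and 1498 (early, intermediate and late), had ratios of 1.68 and 2.35 and did not pass. The start-site windows of both genes are shown because 1 stretch of DNA lies between these neighbours, which were both selected. They run from 250 bases before to 50 after the RefSeq start, 5′ to 3′ in the direction of each gene, on GRCm38.p6. In Col4a5 (chrX:141475169-141475468, plus strand) capitals mark the GC box GGGCGG, and in Col4a6 (chrX:141474027-141474326, minus strand) they mark CATTCC, the TEAD core motif GGAATG read on the other strand.
Col4a5: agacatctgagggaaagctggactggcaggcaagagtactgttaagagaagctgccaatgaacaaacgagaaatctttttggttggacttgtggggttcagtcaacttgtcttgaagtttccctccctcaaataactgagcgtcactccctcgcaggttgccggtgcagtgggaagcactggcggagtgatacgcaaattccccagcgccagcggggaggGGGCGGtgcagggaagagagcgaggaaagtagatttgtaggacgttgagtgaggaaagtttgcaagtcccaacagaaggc
Col4a6: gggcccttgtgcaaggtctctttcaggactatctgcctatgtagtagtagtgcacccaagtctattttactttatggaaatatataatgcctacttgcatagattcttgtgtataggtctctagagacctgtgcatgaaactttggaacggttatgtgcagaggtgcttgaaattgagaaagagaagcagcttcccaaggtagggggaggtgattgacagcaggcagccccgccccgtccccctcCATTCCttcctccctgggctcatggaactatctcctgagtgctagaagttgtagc

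Perlecan (Hspg2), the large heparan sulfate proteoglycan of basement membranes, gave signals of 325, 2282 and 1839 at the early, 236, 137 and 186 at the intermediate and 429, 1379 and 1395 at the late stage. MOSE-E replicate 1 and MOSE-L replicate 1 stood close above the MOSE-I arrays, and the 4 other outer arrays at 1379 or more. A brighter Hspg2 probe set did not dip by the rule, with means of 2101, 1501 and 1535 (early, intermediate and late), so the 2 probe sets of this gene differ on the MOSE-L side. The 6-O-endosulfatase Sulf1, which edits heparan sulfate, averaged 3509 ± 335 in early, 1014 ± 574 in intermediate and 2965 ± 472 in late cells, and glypican 4 (Gpc4), a heparan sulfate proteoglycan held at the cell surface, 1507 ± 498 in early, 362 ± 159 in intermediate and 898 ± 207 in late cells. The collagen-modifying enzymes P3h1 (prolyl 3-hydroxylase) and Plod2 (lysyl hydroxylase) averaged 916 ± 248 in early, 379 ± 42.7 in intermediate and 935 ± 202 in late cells and 2113 ± 728 in early, 926 ± 86.3 in intermediate and 3721 ± 1680.1 in late cells. Of 23 matrix glycoproteins and collagens tested, Col4a5 and Hspg2 were the 2 that dipped, and 13 genes of the list, each read by its brightest tested probe set, were called lower in the late than the early cells, none higher.

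Secreted and membrane-bound proteases were present too. Carboxypeptidase E (Cpe), which trims peptide hormone precursors, gave signals of 13685, 22897 and 25207 at the early, 6589, 8298 and 5592 at the intermediate and 19747, 10509 and 20616 at the late stage. The serine protease Htra1, which cleaves matrix proteins, gave signals of 9961, 14474 and 12533 at the early, 2326, 6094 and 4459 at the intermediate and 10799, 16713 and 29595 at the late stage, and the membrane protease Adam9 gave signals of 9987, 10963 and 11728 at the early, 3790.4, 5702 and 4178 at the intermediate and 9812, 16162 and 18905 at the late stage. In all 3 the MOSE-L and MOSE-E arrays overlapped. Carboxypeptidase Q (Cpq) had the largest ratio of the whole set on the MOSE-L side, 13.9, with 599.8, 901 and 1007 at the early, 76.9, 178 and 118 at the intermediate and 1683, 1201 and 2302 at the late stage. Its MOSE-L arrays all lay above its MOSE-E arrays. Adamts1, which cleaves aggrecan and versican, gave signals of 2129.9, 5066 and 4031 at the early, 1062, 338 and 285 at the intermediate and 1134, 2294 and 2482 at the late stage, with MOSE-I replicate 1 just under MOSE-L replicate 1. Carboxypeptidase D (Cpd) averaged 1369 ± 372 in early, 527 ± 10.7 in intermediate and 1763 ± 674 in late cells. Of 16 tested metalloproteinases, ADAMs and inhibitors, Adam9 and Adamts1 dipped.

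The amyloid precursor protein gene App, a membrane protein that secretases of the ADAM family cut, gave signals of 7542, 13798 and 13441 at the early, 4372, 5319 and 4637 at the intermediate and 8938, 11568 and 16502 at the late stage. Its relative Aplp1 averaged 989.7 ± 335 in early, 466 ± 74.4 in intermediate and 1479.5 ± 532 in late cells. The endocytic receptor Lrp1, which takes up App, proteases and lipoproteins, averaged 1364 ± 711 in early, 511 ± 111 in intermediate and 2324 ± 1238 in late cells. All 3 showed MOSE-E replicate 1 as the lowest MOSE-E array.

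Long proteins that bridge actin, microtubules and membranes were among the genes. The spectraplakins dystonin (Dst) and Macf1 averaged 1373 ± 650.0 in early, 539 ± 52 in intermediate and 2551 ± 2173 in late cells and 3004 ± 1219 in early, 919 ± 22 in intermediate and 1989 ± 814 in late cells. Beta II spectrin (Sptbn1), which lines membranes, averaged 4099 ± 1324 in early, 1529 ± 277 in intermediate and 3210.3 ± 1309 in late cells, and the microtubule-associated protein Map1b 1759.9 ± 872 in early, 480.4 ± 35.6 in intermediate and 1093 ± 327 in late cells. A motor gene of each direction, Kif5b and Dync1h1, was among the selected genes. Kinesin heavy chain 5B (Kif5b), which carries cargo outward, gave signals of 3638, 2787 and 3042 at the early, 869, 1236 and 1100.1 at the intermediate and 2480.0, 1864 and 2542 at the late stage. Cytoplasmic dynein heavy chain (Dync1h1), which carries it inward, gave signals of 1267, 3545 and 2499.7 at the early, 1014, 1090.5 and 880.3 at the intermediate and 1147, 3256 and 3636 at the late stage. In Dync1h1 both replicates 1 stood close to the MOSE-I arrays, whereas in Kif5b they did not, and the MOSE-L arrays of Kif5b all lay below its MOSE-E arrays. A pair of brighter Kif5b probe sets, with MOSE-I means of 2404 and 2719, had ratios of 1.37 to 1.61 and stayed outside the threshold. Of 29 tested genes of kinesins, dyneins and microtubule proteins, 5 dipped. None of these 5 was called between late and early cells, where 5 genes of the list, Kif1b, Kif26b, Ninl, Tubb2a and Tubb6, were called lower and none higher. Among the other kinesin and dynein genes of the list, by their brightest tested probe sets, only Dync1li2 was lowest in MOSE-I cells.

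Regulators of small GTPases, which set the state of actin, were also present. The microtubule-bound RhoA exchange factor Arhgef2 (GEF-H1) gave signals of 1244, 1047 and 598 at the early, 579, 395 and 379 at the intermediate and 1024, 955 and 1251 at the late stage, and the Cdc42 exchange factor Dock9 gave signals of 954, 889 and 848 at the early, 537, 262 and 292 at the intermediate and 565, 947 and 819 at the late stage. In both, the MOSE-L and MOSE-E arrays overlapped and MOSE-E replicate 1 was the highest MOSE-E array, unlike in most of the set. The lowest early signal of Arhgef2 was only 598, against 579 on MOSE-I replicate 1. Prex2, a Rac exchange factor, averaged 646 ± 177 in early, 145 ± 80.7 in intermediate and 628 ± 289 in late cells, and the Rap exchange factor Rapgef3 (EPAC1), a sensor of cyclic AMP, 884 ± 216 in early, 382 ± 175 in intermediate and 847 ± 299 in late cells. None of 32 tested actin filament regulators dipped.

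Of the 20 tested genes of the YAP and TEAD list, 4 dipped. Ankrd1, a muscle and stress protein that is a standard target of YAP, gave signals of 1089, 3620.4 and 4084 at the early, 624, 278 and 201 at the intermediate and 799, 1744 and 1983 at the late stage. Its ratios were 7.97 from the MOSE-E side and 4.10 from the MOSE-L side. The receptor tyrosine kinase Axl gave signals of 4305, 6676 and 5876 at the early, 1778, 2062 and 2346 at the intermediate and 2622, 5027 and 5754 at the late stage, and Crim1, a membrane protein that binds BMPs, gave signals of 1995, 3538 and 2999 at the early, 422, 580.5 and 635 at the intermediate and 781, 1523 and 1462 at the late stage. Wwtr1, the gene of TAZ itself, averaged 1219.7 ± 105 in early, 511 ± 84.8 in intermediate and 1058 ± 95 in late cells, with the 3 arrays of each stage close together. A brighter Wwtr1 probe set, with means of 2687, 1827 and 3218 (early, intermediate and late), had ratios of 1.47 and 1.76 and did not pass. Its partner Yap1 did not dip, with means of 2813, 2928 and 2769 (early, intermediate and late). Of 18 genes of the list over 500 in both outer stages, 14 had their lowest mean in MOSE-I cells, where 30.6% of all such genes had. These 14 include the 4 dipping genes, which the rule chose for their low in MOSE-I cells. The count is thus a description and no test. Such a share was not particular to this list. The same count was 11 of 14 for receptor tyrosine kinases and ligands, 3 of which were selected genes. It was 14 of 19 for solute carriers, none of which was selected. It was 2 of 29 for the cell cycle list and 0 of 15 for cholesterol synthesis and uptake. Other genes of the YAP and TEAD list, Ccn1, Ccn2, Ajuba and Lats2, were called lower in late than early cells. Ccn1, with means of 22928, 3319 and 3518 (early, intermediate and late), was about as low in late as in intermediate cells. The second Ankrd1 probe set, the brighter one, had means of 3046, 477 and 1485 and ratios of 6.39 and 3.11, but failed on the separation of the arrays.

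The Ankrd1 start-site window (chr19:36119795-36120094, minus strand) is shown for its copies of the TEAD core motif GGAATG, in capitals.
Ankrd1: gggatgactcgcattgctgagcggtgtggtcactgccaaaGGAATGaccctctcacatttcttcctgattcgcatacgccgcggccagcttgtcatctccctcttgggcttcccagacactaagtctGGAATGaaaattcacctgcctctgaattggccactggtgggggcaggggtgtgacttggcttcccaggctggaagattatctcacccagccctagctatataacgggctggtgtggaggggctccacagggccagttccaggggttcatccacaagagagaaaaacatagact
The window holds 2 copies as spelled. RefSeq start-site windows were at hand for 99 of the 130 genes, 130 windows in all. GGAATG on either strand was found in 23 of these windows (17.7%), those of 18 genes, against 11.6% of the 6075 windows of genes over 500 in both outer stages and 14.7% of all 32851 windows of the same length. All 5 windows of the 4 dipping genes of the YAP and TEAD list held it, as did those of 6 of 9 genes of the list that were over 500 in both outer stages, had a window and did not dip. These shares are counts of letters in a short window and mark no binding.

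Ligands and receptors of growth signals were found on both sides of the membrane. Gas6, the ligand of Axl, gave signals of 461, 1424 and 1887 at the early, 223, 310.1 and 325 at the intermediate and 2442, 3263 and 2295 at the late stage, with MOSE-E replicate 1 nearest to the MOSE-I arrays and all MOSE-L arrays above all MOSE-E arrays. Ligand and receptor were both among the selected genes, so their shared low in MOSE-I cells was set by the rule. Whether they move together was not tested. The insulin-like growth factor 1 receptor (Igf1r) gave signals of 631, 1565 and 1298 at the early, 289, 497 and 435 at the intermediate and 722, 1723 and 1801 at the late stage, again with both replicates 1 lowest. Igfbp7, a secreted protein that binds insulin-like growth factors and insulin, gave signals of 3469.6, 5689 and 6847 at the early, 1359, 1852 and 1229 at the intermediate and 13733, 22645 and 19433 at the late stage. Ephrin B2 (Efnb2), the membrane ligand of EphB receptors, gave signals of 2055, 2429 and 2197 at the early, 1344, 869 and 867 at the intermediate and 2587, 3418 and 4212 at the late stage, its MOSE-L arrays above its MOSE-E arrays. Downstream of such receptors, Pik3ca, the catalytic subunit of PI3-kinase, averaged 1138 ± 226 in early, 448 ± 151 in intermediate and 1279 ± 168 in late cells, and the Ras exchange factor Sos2 997 ± 87.3 in early, 384 ± 62.1 in intermediate and 1120.0 ± 289 in late cells. Of 24 tested receptor tyrosine kinases and ligands 3 dipped (Axl, Efnb2 and Igf1r), and of 13 genes of the insulin-like growth factor axis 2 (Igf1r and Igfbp7). Follistatin (Fst), which binds activin, averaged 1079 ± 245 in early, 227 ± 75.8 in intermediate and 636 ± 12.9 in late cells, and the Wnt antagonist Sfrp4 and the Wnt sorting receptor Wls averaged 931 ± 214 in early, 445 ± 42.2 in intermediate and 1203 ± 127 in late cells and 1866 ± 504 in early, 902 ± 203 in intermediate and 2138 ± 464 in late cells.

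The receptor phosphatases Ptprf (LAR) and Ptprd are close relatives that act at adhesion sites. Ptprf gave signals of 1029, 1823 and 1928 at the early, 488, 30.4 and 7.60 at the intermediate and 777, 1176 and 1159.5 at the late stage, the largest ratio of the set on the MOSE-E side, 9.08. MOSE-I replicate 1 stood far above the 2 other MOSE-I arrays, whose signals were near background, so that the size of this ratio rests on very low values. Ptprd averaged 1122 ± 414 in early, 160.0 ± 90.3 in intermediate and 719 ± 243 in late cells, and Inppl1 (SHIP2), a phosphatase of inositol lipids, 2188 ± 450.2 in early, 961 ± 327 in intermediate and 2560.4 ± 1125 in late cells.

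The deepest dip, by the lower of the 2 ratios with 50 added to each mean, was in a gene of prostaglandin synthesis. Ptgs2 (cyclooxygenase 2), the inducible enzyme that starts prostaglandin synthesis, gave signals of 3745, 10941 and 11925 at the early, 2466, 921 and 1683 at the intermediate and 3794, 11192 and 37128 at the late stage. The spread of the MOSE-L arrays was wide, nearly 10 times from lowest to highest, and MOSE-L replicate 1 and MOSE-E replicate 1 gave about the same signal. The Ptgs2 start-site window (chr1:150099781-150100080, plus strand) is shown as that of the gene with the deepest dip, with capitals at ACGTCA, the cyclic AMP response half-site TGACGT read on the other strand.
Ptgs2: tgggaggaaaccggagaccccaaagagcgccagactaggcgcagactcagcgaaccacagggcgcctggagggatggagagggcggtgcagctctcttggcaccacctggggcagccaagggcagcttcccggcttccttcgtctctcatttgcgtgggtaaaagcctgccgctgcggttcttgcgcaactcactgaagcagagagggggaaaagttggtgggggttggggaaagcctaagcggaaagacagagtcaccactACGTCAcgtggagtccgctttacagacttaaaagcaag
TGACGT on either strand was found in 13.1% of the windows of the 130 genes, against 13.2% of those of genes over 500 in both outer stages and 7.51% of all windows, so the share was close to that of other genes over 500. Nfkbiz, a nuclear partner of NF-kB, averaged 2075 ± 820.1 in early, 393 ± 47.9 in intermediate and 1105 ± 612 in late cells, the AP-1 subunit Jun 2267 ± 557 in early, 866 ± 78.7 in intermediate and 1788 ± 441 in late cells and the deubiquitinase Cyld, which restrains NF-kB, 1326 ± 165 in early, 657 ± 107 in intermediate and 1514 ± 200.3 in late cells. The AP-1 motif TGACTCA was in 4 of the 130 windows (3.08%), against 3.33% and 5.20%. The class I histocompatibility genes H2-K1 and H2-D1, which present peptides to T cells, averaged 2621 ± 317 in early, 1130.0 ± 388 in intermediate and 7524 ± 6236 in late cells and 639.5 ± 55.5 in early, 299 ± 67.8 in intermediate and 1522 ± 1646 in late cells, their MOSE-L means carried by replicate 3 (14655 and 3419.8). Transcripts of these 2 near-identical genes can cross-hybridise.

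Among the selected genes were 2 surface antigens known from ovarian cancer. Mesothelin (Msln) gave signals of 4478, 6385 and 5325 at the early, 1024, 1234 and 714 at the intermediate and 2141, 4295 and 5671 at the late stage. Of the 11 markers of ovarian surface epithelium and mesothelium, Msln alone was selected. Wt1, Upk3b, Lrrn4 and Cdh2 also had their lowest mean in MOSE-I cells. Krt7, Krt8, Krt18, Krt19, Upk1b and Vim did not, and the means of Krt8 and Krt18 were highest there. The folate receptor Folr1 averaged 3679 ± 122 in early, 975 ± 137 in intermediate and 2251 ± 479.9 in late cells, with its 3 arrays of each stage close together and all MOSE-L arrays below all MOSE-E arrays. Folr1 lies 20.1 kb from Inppl1 on chromosome 7. Milk fat globule protein Mfge8, a bridge to integrin alpha V, averaged 4752 ± 1302 in early, 2039.9 ± 140.5 in intermediate and 5271 ± 1861 in late cells.

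Long noncoding RNAs and some genes of splicing were among the 130. Malat1, a long noncoding RNA held in nuclear speckles, gave signals of 13073, 21147 and 21129 at the early, 5395, 6114 and 3596 at the intermediate and 6153, 34640.2 and 38754 at the late stage. MOSE-L replicate 1 lay just above the MOSE-I arrays, and replicates 2 and 3 at more than 5 times that signal. Its genomic neighbour Neat1 did not pass the rule but was also lowest in MOSE-I cells, with means of 3476, 1431 and 4900 (early, intermediate and late). Mir22hg, the host transcript of miR-22, averaged 1803 ± 414 in early, 458 ± 204 in intermediate and 2648 ± 1297 in late cells. Its locus runs from 75461539 to 75466690 on chromosome 11 (GRCm38.p6) and holds both mature arms of miR-22, the 5p arm at 75463734 to 75463755 and the 3p arm at 75463772 to 75463793. The array measured the host, not the mature miRNA. The arms are shown as RefSeq gives them because they are what the dipping transcript carries, with the seed (bases 2 to 8) in capitals, and the 2 seeds differ.
mmu-miR-22-5p: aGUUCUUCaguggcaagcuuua
mmu-miR-22-3p: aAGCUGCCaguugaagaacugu

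Of the protein genes of RNA processing, Rbm39, a splicing factor of the SR kind, gave signals of 1151, 1847 and 1423 at the early, 514, 601 and 342 at the intermediate and 783, 2962 and 4764 at the late stage. Luc7l2, a U1 snRNP protein, averaged 981 ± 418 in early, 296 ± 131 in intermediate and 2671 ± 2293 in late cells. Brighter probe sets of both genes read differently. That of Rbm39 had means of 3479, 2907 and 4643 (early, intermediate and late), and the brightest of Luc7l2 2336, 2745 and 3230, with no dip. Rsrc2 and Pnisr, both rich in arginine and serine, averaged 768 ± 239 in early, 245 ± 54.5 in intermediate and 725 ± 347 in late cells and 672 ± 104 in early, 293 ± 93.1 in intermediate and 710.4 ± 255 in late cells, and the cyclins of transcription and splicing Ccnl2 and Ccnt2 2038 ± 703 in early, 756 ± 126 in intermediate and 1979.6 ± 1079.6 in late cells and 543 ± 124 in early, 236 ± 51.6 in intermediate and 608 ± 77.7 in late cells. The list of splicing and RNA-binding proteins had 35 tested genes, of which Malat1, Rbm39 and Luc7l2 dipped. By the brightest probe set of each gene, 10 of its 35 genes had their lowest mean in MOSE-I cells, against 30.6% of all genes over 500 in both outer stages. The selected genes Malat1 and Rbm39 are among these 10.

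Proteins of chromatin and DNA repair included Atrx, a remodeller of heterochromatin (1416 ± 253 in early, 633 ± 78.8 in intermediate and 1355 ± 323 in late cells), Rif1, which acts at breaks and in replication timing (1080.0 ± 258 in early, 352 ± 79.1 in intermediate and 1083 ± 395 in late cells), and the kinase Smg1 of nonsense-mediated decay (883 ± 286 in early, 424 ± 88.9 in intermediate and 1063 ± 497 in late cells). Ogt, the transferase that adds O-GlcNAc to nuclear and cytoplasmic proteins, averaged 652 ± 104 in early, 304 ± 69.6 in intermediate and 788 ± 413 in late cells. No gene of the cell cycle list (31 tested) or of the cholesterol synthesis list (19 tested) was among the 130.

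In the secretory pathway the probe sets of some genes disagreed on the size of the dip. The coat protein Copa, needed for transport from Golgi to endoplasmic reticulum, gave signals of 453, 1009 and 720.2 at the early, 123, 286 and 158 at the intermediate and 404, 1367 and 1419 at the late stage, and the Golgi microtubule-associated protein Trip11 (GMAP-210) gave signals of 663, 1209.5 and 1096 at the early, 545, 475 and 434 at the intermediate and 593, 1414 and 1477 at the late stage. The Copa probe set is dim, and a brighter one had means of 5925, 4701 and 7320. Likewise calumenin (Calu), a calcium-binding protein of the endoplasmic reticulum, averaged 575 ± 219 in early, 145 ± 24.6 in intermediate and 667 ± 332 in late cells on the probe set that passed and 13205, 11037 and 14605 on a brighter one. Of 36 tested genes of Golgi, vesicle and endosome traffic, Copa and Trip11 dipped. Ero1a, the oxidase that drives disulfide formation, averaged 2368 ± 418 in early, 960.0 ± 150.2 in intermediate and 8159.5 ± 9834 in late cells, its MOSE-L mean set by replicate 3 (19507, against 2868 and 2104). The chaperones Dnaja2 and Hspa4l averaged 806 ± 282 in early, 207 ± 62.5 in intermediate and 1236 ± 781 in late cells and 584 ± 111 in early, 170.4 ± 104 in intermediate and 594 ± 341 in late cells.

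Of the mitochondrial genome, only 1 gene was over 500 in both outer stages, and this gene, ND5, was among the 130. It encodes a subunit of respiratory complex I on the mitochondrial genome and gave signals of 5334, 15134 and 14877 at the early, 2235, 5091 and 914 at the intermediate and 8977, 21674 and 10982 at the late stage. MOSE-I replicate 2 (5091) came close to MOSE-E replicate 1 (5334), so the separation of its arrays is narrow. Lipoprotein lipase (Lpl), which frees fatty acids from lipoproteins, gave signals of 4314, 5613 and 5686 at the early, 835, 2469 and 2398 at the intermediate and 9378, 12622 and 22908 at the late stage. Phospholipase D1 (Pld1), which makes phosphatidic acid, averaged 676 ± 156 in early, 168 ± 27.4 in intermediate and 799 ± 66.1 in late cells.

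The rest of the set had mixed roles. Akap9, a scaffold that anchors protein kinase A at the Golgi and centrosome, averaged 661 ± 238 in early, 250.0 ± 83.1 in intermediate and 1012 ± 573 in late cells, and Pkia, an inhibitor of the same kinase, 929.7 ± 28.9 in early, 401 ± 189.7 in intermediate and 1359.5 ± 761 in late cells. Both belong to cyclic AMP signalling, as does Rapgef3. The semaphorin Sema3d and the teneurin Tenm3, guidance and adhesion proteins known from the nervous system, averaged 4261 ± 885 in early, 1224 ± 427 in intermediate and 4216 ± 1122 in late cells and 1249 ± 211 in early, 526 ± 232 in intermediate and 1475 ± 587 in late cells. The RNA-binding protein Msi2 averaged 902 ± 68.7 in early, 344 ± 71 in intermediate and 989 ± 113 in late cells, and the ubiquitin ligases Mycbp2 and Trim2 1159 ± 402 in early, 468 ± 74 in intermediate and 1221 ± 436 in late cells and 1812 ± 247 in early, 615 ± 184 in intermediate and 1442 ± 282 in late cells. Il18rap, a chain of the interleukin 18 receptor known from lymphocytes, averaged 595 ± 52.7 in early, 295 ± 111 in intermediate and 622 ± 168 in late cells, with the leukocyte marker Ptprc under 500 on every array. Of 22 tested genes of cyclic AMP and protein kinase C signalling, Akap9 was the one that dipped, since Pkia and Rapgef3 are not on that list. The genes not named elsewhere, all within the ranges of ratios already given, were the transcription and chromatin genes Zbtb18, Zfp462, Taf1d, Ints6 and Atad2b, the actin-linked genes Afap1 and Sh3d19, the volume-regulated anion channel subunit Lrrc8c, the RNA-binding protein Samd4, the secreted protein Olfml2b, the helicase Helz2, and Tmem245, Mllt11, Prrc2c, Parm1, Zswim6, Zfp991, Nrp and the transcribed pseudogene 2610005L07Rik.

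The selection did not set the outer stages against each other, but it did not leave this comparison wholly free. Both stages had to lie at least 2 times above MOSE-I, so a gene lower in 1 of them needed a larger ratio in the other. The probe sets whose shares are given beside the 130 genes met no such demand, so the shares are no like comparison. MOSE-L and MOSE-E means were within 1.5-fold in 90 of the 130 genes, MOSE-L was at least 2 times MOSE-E in 11, and at most 0.5 times in 2. MOSE-L means were higher in 84 genes and lower in 46. The test was a linear model of all 9 arrays on log2 of the signal plus 50 (limma, adjusted by Benjamini-Hochberg over 13845 probe sets), and a call needed both an adjusted p no higher than 0.05 and a change of 1 or more on the log2 scale. Of the 130 genes 6 were called higher in late than early cells, where 7.63% of all tested probe sets were called higher and 4.69% of the 8776 that were over 500 in both stages and named 1 gene. Another 2 genes were called lower, where 7.37% of all tested probe sets and 5.30% of those over 500 in both were. The remaining 122 were not called, which does not show that they were equal. Without MOSE-L replicate 1 the higher genes numbered 12, of which 4 were among the 6, without MOSE-E replicate 1 or MOSE-L replicate 3 they numbered 2, and without MOSE-E replicate 2, MOSE-E replicate 3 or MOSE-I replicate 3 they numbered 3. The lower genes numbered 6 without MOSE-E replicate 1 and 1 without MOSE-E replicate 2, MOSE-E replicate 3 or MOSE-L replicate 1. The median log2 change of the 130 genes was 0.14, against 0.01 over all tested probe sets and -0.01 over those over 500 in both stages.

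The 3 MOSE-L arrays all lay above the 3 MOSE-E arrays in 11 of the 130 genes, where 18.2% of the probe sets over 500 in both stages did so, and all below in 6, where 21.4% did. In 113 genes the outer stages overlapped, and the demand on MOSE-I bears on these counts as well. Against MOSE-I, the contrasts that chose the genes, 90 were called lower in MOSE-I than MOSE-E cells (3.76% of all tested probe sets) and 116 higher in MOSE-L than MOSE-I cells (8.05%), and nothing is read from those counts.

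Of the genes called higher, Igfbp7 changed most, by a log2 of 1.82 ± 0.28 (SE, limma adjusted p = 0.0016), with means of 18604 ± 4514 in MOSE-L and 5335 ± 1716 in MOSE-E cells (SD, n = 3). In the MOSE-I cells between them its mean was 1479.9 ± 328. Mfsd6, a transporter-like membrane protein, gave signals of 1326, 1454 and 1357 at the early, 469.6, 307 and 296 at the intermediate and 2805, 3367 and 5696 at the late stage, a log2 change of 1.42 ± 0.26 (SE, limma adjusted p = 0.00375). Its MOSE-L arrays were all at least 2805 and its MOSE-E arrays at most 1454. Lpl (log2 change 1.42 ± 0.41, limma adjusted p = 0.0289) and Gas6 (1.24 ± 0.40, adjusted p = 0.0434) also had no overlap between the stages. Lpl was not called without MOSE-L replicate 3 or without any 1 of the MOSE-E arrays, and Gas6 was called without MOSE-E replicate 3 but not when any 1 of the 8 other arrays was left out.

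Adgrg6, an adhesion G protein-coupled receptor that binds collagen IV, gave signals of 264, 784 and 579 at the early, 134, 206 and 96.2 at the intermediate and 782, 1369 and 3561 at the late stage. Its log2 change was 1.56 ± 0.50 (SE, limma adjusted p = 0.0409), although its lowest MOSE-L signal was just under its highest MOSE-E signal. Nupr1, a stress-induced nuclear protein, gave signals of 3326, 4133 and 3339.9 at the early, 1379, 2162 and 1432 at the intermediate and 7910.4, 4738 and 18135 at the late stage, a log2 change of 1.29 ± 0.40 (SE, limma adjusted p = 0.0358). In both genes MOSE-L replicate 3 was the highest array by more than 2 times, and neither was called without it. Adgrg6 was also lost without MOSE-E replicate 1 or 3, MOSE-L replicate 2 or any 1 of the MOSE-I arrays, and Nupr1 without MOSE-L replicate 1, MOSE-I replicate 3 or any 1 of the MOSE-E arrays.

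The genes called lower in MOSE-L cells were Gm20559 and Crim1. Gm20559, a long noncoding RNA gene, gave signals of 1640.4, 1686 and 1381 at the early, 161, 276 and 216 at the intermediate and 596, 523 and 667 at the late stage, a log2 change of -1.33 ± 0.20 (SE, limma adjusted p = 0.00138). All 3 stages stood apart from each other, with MOSE-L between MOSE-I and MOSE-E. For Crim1, whose signals stand above with the YAP and TEAD list, the log2 change was -1.17 ± 0.29 (SE, limma adjusted p = 0.0153), also without overlap. A brighter Crim1 probe set, with means of 3434, 881 and 2066 (early, intermediate and late) and ratios of 3.9 and 2.34, failed on the separation of the arrays. Its log2 change was -0.72 and it was not called (limma adjusted p = 0.172), so the call rests on the dimmer probe set. Crim1 was not called without MOSE-E replicate 2, MOSE-E replicate 3 or MOSE-L replicate 1. The genes that joined without MOSE-E replicate 1 were Ankrd1, Map1b, Nfkbiz and Tln1.

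**Figure D3:**
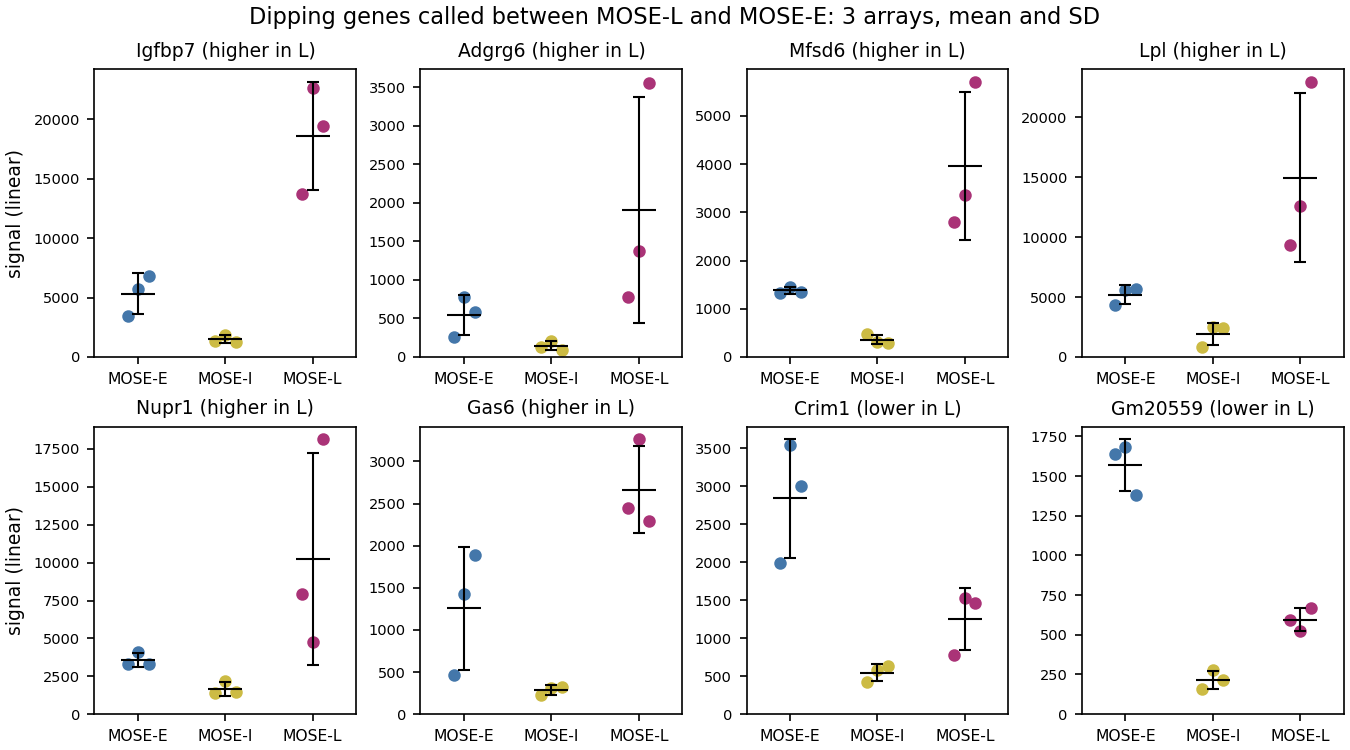
Linear signals (vertical axes, from 0) of the 8 genes that were called, on the 3 arrays of each stage (points, replicates 1 to 3 from left to right), with mean and SD (bars). All 8 have their lowest values in MOSE-I cells, as the selection demanded, and Nupr1 and Adgrg6 reach their highest on MOSE-L replicate 3.

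Some genes kept their stages apart without meeting both thresholds. Cpq had a log2 change of 0.99 ± 0.30 (SE, limma adjusted p = 0.0318), just short of 1. Folr1 had a log2 change of -0.72 ± 0.20 (SE, limma adjusted p = 0.0225). Ildr2 (0.85, adjusted p = 0.0629), H2-K1 (1.19, adjusted p = 0.0841), Efnb2 (0.58, adjusted p = 0.0885), Plxdc2 (0.69, adjusted p = 0.2) and Sfrp4 (0.37, adjusted p = 0.186) had all MOSE-L arrays above all MOSE-E arrays and did not pass in limma. Fst (-0.69, adjusted p = 0.0614), Usp53 (-0.47, adjusted p = 0.107) and Kif5b (-0.46, adjusted p = 0.122) had all late arrays below all early arrays and did not pass in limma either.

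Other probe sets gave a further reading of many of the same genes. Of the 130 genes 17 had no other probe set, and 73 had others with means over 500 in both outer stages, 128 in all. In 119 of these 128 (93.0%) MOSE-I had the lowest mean, against 30.6% of all genes over 500 in both, each read by its brightest probe set. Their median ratios were 1.96 for MOSE-E over MOSE-I and 2.20 for MOSE-L over MOSE-I, against 0.967 and 0.974 over all those genes. The full rule was passed by 36 of the 128, in 27 genes, and it fixes MOSE-I as the lowest stage of these 36. The shares and ratios of the 128 are thus a description and no test of the dip. In 33 genes a probe set brighter than the selected one existed. None of these passed, which the choice of the brightest passing probe set fixes. Of these 53 brighter probe sets 44 had their lowest mean in MOSE-I cells, most with ratios under 2 on at least 1 side. Besides those already given, this was so for brighter probe sets of Arhgef2 (1.79 and 1.92), P3h1 (1.98 and 1.87), Sptbn1 (2.48 and 1.98), Nectin2, Wls, Rif1, Ogt, H2-D1 and Tm9sf2, while those of Pvr (3.11 and 2.93) and Hspa4l (2.88 and 2.35) reached 2 on both sides and failed on the separation of the arrays.

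In a few genes the brightest probe set had little or no dip. The brightest had means of 12759, 14022 and 13060.2 (early, intermediate and late) for Dnaja2, 2446, 2280 and 2737 for Rsrc2, and, for Frmd4b, a scaffold protein, 8908, 12117 and 16144. Which transcript forms each probe set reads was not analysed here.

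**Figure D4:**
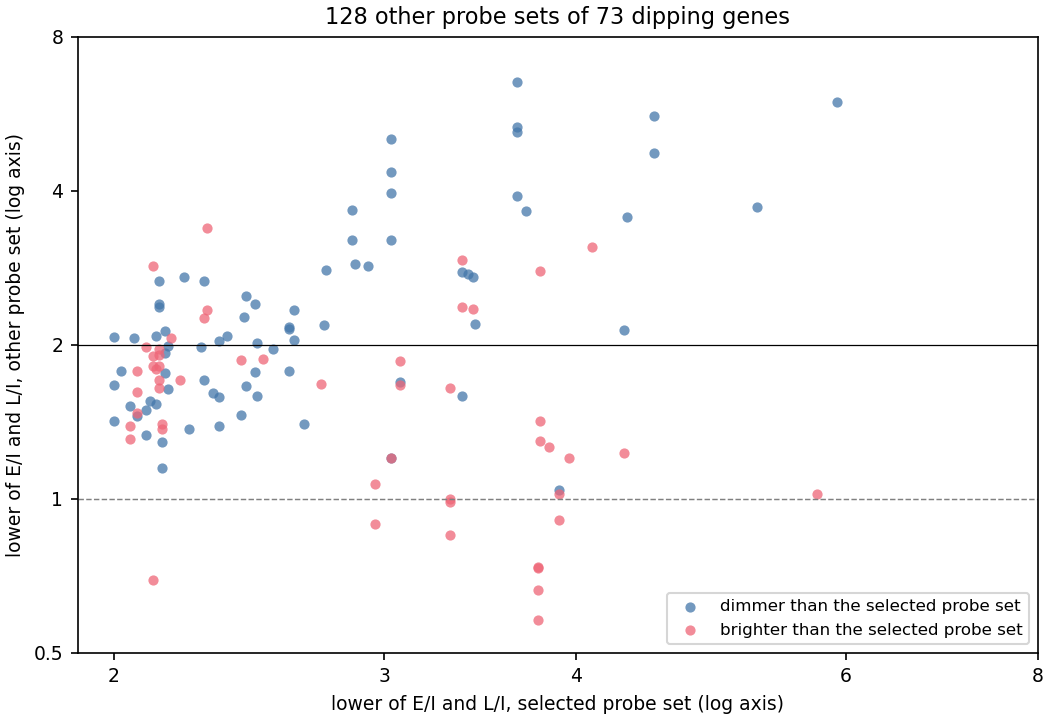
For 128 other probe sets of 73 of the genes, the lower of the ratios MOSE-E over MOSE-I and MOSE-L over MOSE-I (vertical log axis) against the same value of the selected probe set (horizontal log axis), in red where the other probe set is the brighter one. The black line marks the ratio of 2 that the selection set and the dashed line a ratio of 1. MOSE-I cells have the lowest mean in 119 of the 128, and 36 of the 128 passed the full rule.

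The loci of the 130 genes were long. Leaving out ND5, their median locus length on GRCm38.p6 was 65.6 kb (quartiles 27.6 and 143.1), against 24.3 kb (10.5 and 53.2) for the 5748 genes over 500 in both outer stages that had a locus length. Over 100 kb were 45 of 129 (34.9%), against 10.9% of those genes. The longest were Ptprd (2271 kb), Tenm3 (1297 kb), Cpq (511 kb), Plxdc2 (405 kb) and Dst (401 kb). The 50 genes that peaked in MOSE-I cells had a median of 11 kb, with 3 over 100 kb. Short loci were present too, among them Jun (3.2 kb), Nupr1 (2.2 kb) and Ptgs2, which spans 8204 bases on chromosome 1 from 150100031 to 150108234.

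Length also went with the course of genes outside the set. The share of genes in the set was 1.19% for loci up to 10 kb, 1.02% for 10 to 30 kb, 2.65% for 30 to 100 kb and 7.17% over 100 kb. Among genes outside the set, MOSE-I had the lowest mean in 17.1%, 23.8%, 37.1% and 49.4% of the same classes. For the 583 such genes over 100 kb the median ratios were 1.11 for MOSE-E over MOSE-I and 1.19 for MOSE-L over MOSE-I, against 0.814 and 0.822 for the 1330 up to 10 kb. Longer loci also had lower signals, with a median of 1180 over 100 kb and 2000 up to 10 kb, and the part of signal in this was not tested. On the 9 arrays the 583 long genes stood at a median log2 deviation of -0.05, 0.09 and 0.04 at the early, -0.20, -0.08 and -0.12 at the intermediate and 0.00, 0.18 and 0.15 at the late stage, with replicate 1 again the lowest array of each.

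**Figure D5:**
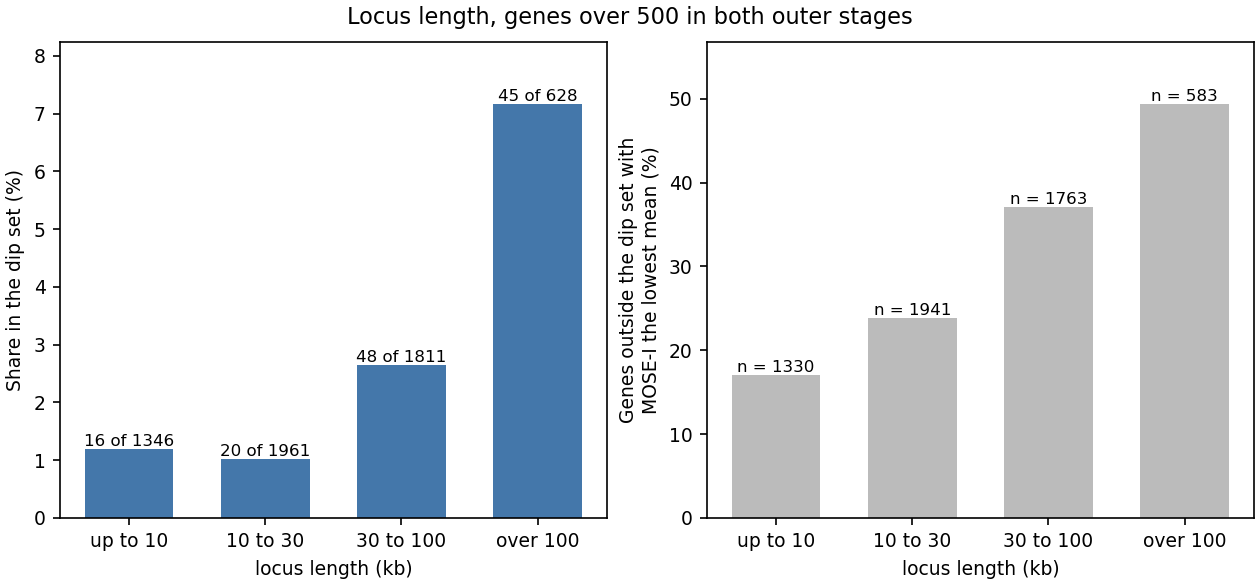
Left, the percent of genes in the dip set by locus length in kb, among genes over 500 in both MOSE-E and MOSE-L cells, with the counts above the bars. Right, for the genes outside the set, the percent whose lowest stage mean was in MOSE-I cells, which runs from 17.1% up to 10 kb to 49.4% over 100 kb.

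By chromosome, the 130 genes, apart from ND5 on the mitochondrial genome, were spread over all autosomes and the X. Chromosomes 1, 3 and 4 held 15, 14 and 14 of them (11.5%, 10.8% and 10.8%), against 6.02%, 5.17% and 6.02% of the genes over 500 in both outer stages. Chromosomes 2 and 11 held 5 each (3.85%), against 8.14% and 8.26%, and chromosome 10 held 2 (1.54%), against 5.15%. Other pairs within 1 Mb were Nfkbiz and Gm6958, Raph1 and Nbeal1, Pld1 and Fndc3b, Dock9 and Tm9sf2, Gas6 and Atp11a, Adamts1 and App, Pag1 and Tpd52, and Ptprf and P3h1. In base composition the start-site windows did not stand out, with a median GC content of 62.3%, against 62.0% for windows of genes over 500 in both and 52.7% for all windows. The GC box GGGCGG was in 71.5% of the windows of the 130 genes, against 67.1% and 35.7%, the CCAAT box in 36.2%, against 37.4% and 37.4%, and TATAAA in 13.1%, against 6.86% and 13.6% (either strand, genes over 500 in both outer stages and then all windows).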

How the data were processed

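Total RNA of 9 MOSE cultures, 3 for each stage, was hybridised to Affymetrix GeneChip arrays of the mouse genome. The deposited values are linear signal intensities per probe set, which the authors computed with MAS 5.0 and scaled to a trimmed mean of 500 on each array, so depth has no meaning here and the number of arrays limits the precision. Stages were taken from the sample labels. Probe sets were named from the platform annotation, and names, loci and start-site windows from RefSeq (GRCm38.p6). Of 45101 probe sets, 64 were controls, 34945 name 1 gene, 932 name several and 9211 name none, and only those with 1 gene were used for the selection.

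Probe sets whose highest signal of the 9 arrays passed 500, 13845 in all, entered the test as log2 of the signal plus 50 with limma 3.58.1 (lmFit, and eBayes with trend) in R 4.3.3, with 1 mean per stage, and p-values were adjusted by the Benjamini-Hochberg method. The added 50 makes changes of low signals look smaller. The code was tested on simulated data. All 3 contrasts between stages were fitted, and calls against MOSE-I, which chose the genes, serve as a description only. The genes and the gene lists were chosen with earlier results of these data known. Signals on all 9 arrays are given for the 10 genes with the deepest dip (the lower ratio of means with 50 added), the 10 with the highest mean signal, those called between MOSE-L and MOSE-E, those named in the study's text, and up to 2 genes of each list with 2 or more. List counts of calls and of lowest means use the brightest tested probe set of each gene. A gene of a list was counted as dipping when any of its probe sets passed the rule. Alternatives were another scaling, added value, filter, variance prior, fold, signal minimum or stage mean, a replicate block, the methods' t-test, and leaving out each array.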

Additional observations from a re-analysis of the deposited data

How the results depend on the processing

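The 130 genes depend on the scaling and on the thresholds. When each array was scaled to the same median signal, which moved single arrays by -0.30 to 0.19 on the log2 scale, 71 genes passed, all among the 130. A fold of 1.5 gave 294 genes, a fold of 3 gave 35 and a mean signal over 1000 gave 81. Quantile normalization gave 113 (111 shared), geometric means 126 and no demand for separated arrays 185. Leaving out 1 array gave 114 (MOSE-E replicate 2) to 192 (MOSE-L replicate 1). Of the 130 genes, those called higher in MOSE-L than MOSE-E cells (6) numbered 2 with no filter, 3 when only MOSE-L and MOSE-E arrays were fitted, 2 by the methods' t-test unadjusted and 0 after Benjamini-Hochberg adjustment, and 2 (without MOSE-E replicate 1 or MOSE-L replicate 3) to 12 (without MOSE-L replicate 1) when 1 array was left out. Without MOSE-E replicate 2, MOSE-E replicate 3 or MOSE-I replicate 3 they numbered 3. Those called lower (2) numbered 1 by the methods' t-test after adjustment, and 1 (without MOSE-E replicate 2, MOSE-E replicate 3 or MOSE-L replicate 1) to 6 (without MOSE-E replicate 1) when 1 array was left out. The cause was not tested. With the replicate number as a block 6 were called higher, H2-K1 in place of Nupr1, and 2 lower. The labels do not say that a number marks a shared day, and the deviations of same-numbered arrays correlated at -0.11 to 0.41, highest for replicates 1 (0.41) and 2 (0.26) of MOSE-E and MOSE-L, and not every array correlated best with its own number. Whether same-numbered cultures share a batch was not tested. Over 18 named genes and 20 alternatives, none of 360 log2 changes changed sign and 308 kept their call. Gm20559 was called in all 20, Igfbp7 and Mfsd6 in 19 each, Crim1 in 16, Lpl in 13, Nupr1 and Adgrg6 in 9 each and Gas6 in 6. With 3 arrays per stage, genes that were not called may still differ between the outer stages.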
